A study of Zea mays with 24 samples.

Results

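The subject here is a small set of maize transcripts whose levels moved one way in one inbred line and the other way in a second line when seedlings went into severe drought. The set holds 40 of the 17621 probe sets for genes on an Affymetrix maize array. It comes from a study of the inbred lines Han21 and Ye478, sampled as shoots of seedlings at the 3-leaf stage. Control plants, plants in moderate drought, plants in severe drought and re-watered plants of both lines make 8 groups, each with 3 arrays that the titles call biological replicates. No transgene, mutation or agent other than the watering regime is named, and neither the depth nor the duration of a drought is stated. The design text speaks of 2 independent experiments, so what the 3 replicates cover is uncertain. Shoot is the labelled tissue, but RNA extraction is described for mesocotyls, the stem segment below the coleoptile.

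Members were chosen by their values. For each group, the mean signal of its 3 arrays plus 5 was put on the log2 scale, and the severe-drought value minus the control value was taken within each line. A member had a difference of at least 0.8 in one line and at most -0.8 in the other, with a mean signal of at least 200 units in at least 1 of the 8 groups. Signals are in arbitrary units of array brightness, and on the log2 scale a difference of 1 stands for 2-fold. Of the 17621 probe sets, 10351 reached that signal, and 2654 of these passed the limit in both lines. In both lines together 1163 were higher and 1451 were lower under severe drought, and 40 went opposite ways, or 1.51% of those past the limit in both. In 12 members the severe-drought level was above control in Han21 and below control in Ye478, called the Han21-up members here. In the other 28 it was below control in Han21 and above control in Ye478, called the Ye478-up members. Severe-drought and control values chose these transcripts, so those values are given as a description without a test. The minimum of 200 units was reached in a severe-drought or control group by 39 of the 40, while IDP370 reached it in re-watered Ye478 alone.

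Seedlings short of water close their stomata, slow the growth of their cells and change how water crosses membranes. Aquaporins are membrane channels: the PIP proteins carry water across the plasma membrane, and NIP proteins carry silicic acid and other small uncharged solutes. Expansins loosen the cell wall and so let cells enlarge. Flavonoid and methionine metabolism supply pigments and methyl groups that many stress responses draw on. Such genes are known to respond to water deficit in many plants, in directions that differ by gene and tissue.

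**Figure D1:**
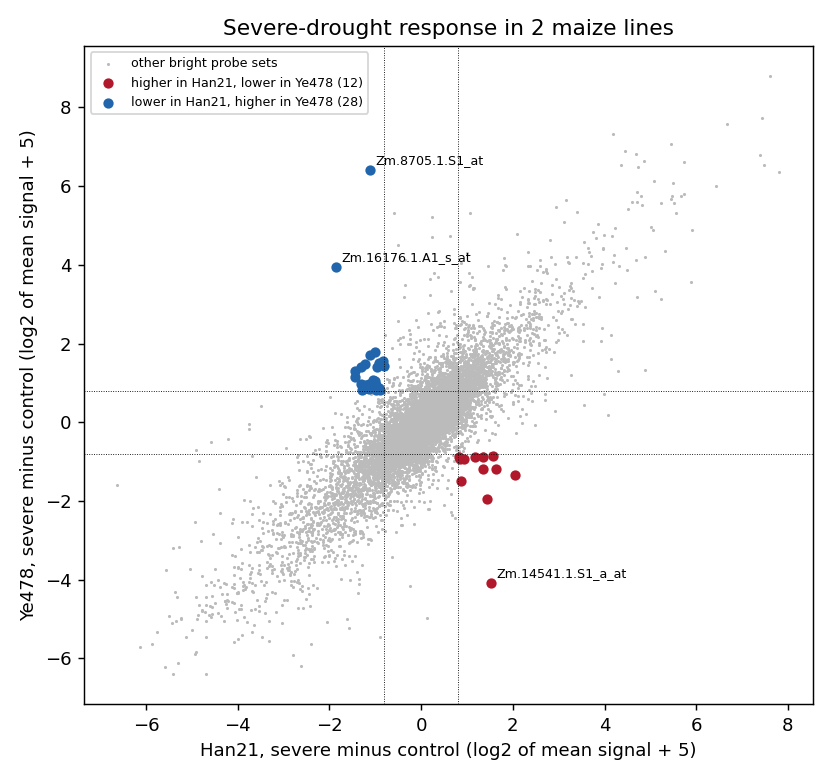
Severe minus control difference (log2 of the mean signal of 3 arrays plus 5) in Han21 on the horizontal axis and Ye478 on the vertical axis, for the 10351 probe sets that reached 200 units in a group. Grey points are other probe sets, red points the 12 Han21-up members, blue points the 28 Ye478-up members, and dotted lines mark 0.8 and -0.8. Most grey points run along the rising diagonal, and 3 members with large values stand out in Ye478: Zm.8705.1.S1_at at 6.42, Zm.16176.1.A1_s_at at 3.96 and Zm.14541.1.S1_a_at at -4.08.

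The array annotation gives 1 gene symbol to 10 of the 40 members, which stand for 9 genes, and none to the other 30. Of all 17621 probe sets, 1452 have 1 symbol. The named Ye478-up members hold 2 aquaporins, pip2b and nip2b, 2 probe sets of the α-expansin gene expA4, the wall-precursor enzyme UGlcAE, and fht1, hmt1 and cda1. The named Han21-up members are LOC541836 and IDP370. No role is given here to cda1, LOC541836 or IDP370. Unnamed members are called by their probe set names.

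Before the members' values, several facts of the arrays bear on them. The 2% trimmed mean was 500.1 to 500.2 units on every array, and array medians lay between 155.3 and 194.0. Replicate 1 stood apart in every group: in a principal component analysis of deviations from group means, its arrays had first-component scores between -26.87 and -22.55, and replicates 2 and 3 had scores between 5.71 and 20.23. The counts of called members are therefore also given without it. Markers of green leaf were bright, with 20 of 22 probe sets at 200 units or more in a group and none at 0. Only 2 of 14 markers of seed tissues reached that level. Markers of dividing tissue reached it in 8 of 17 probe sets, with none at 0, and their summed signal per array moved with treatment. In Han21 that sum was 6682 to 7681 units under severe drought, against 14202 to 16195 in control. Ye478 arrays had 2895 to 4275 under severe drought, against 9665 to 11074 in control. The sum in Han21 was 9389 to 9668 under moderate drought, against 10189 to 13460 in re-watered plants. The sum in Ye478 was 5640 to 6216 under moderate drought, against 7203 to 8678 in re-watered plants. Much of this sum came from the his1a probe set. Its mean was 7412.5 of 15241 units in control Han21 and 2576.7 of 3569 in Ye478 under severe drought. In Han21 the his1a mean was 6316.2 under moderate drought and 5257.5 after re-watering, the reverse of the order of the sum. The 3' to 5' log2 ratio of ubiquitin averaged -0.08 ± 0.21 in Han21 under moderate drought and 0.31 ± 0.24 after re-watering, and in Ye478 0.48 ± 0.34 and 0.745 ± 0.34 (SD, n = 3 each). That of actin averaged -2.81 ± 2.02 in Han21 under moderate drought and -2.82 ± 0.50 after re-watering. In Ye478 it averaged -0.76 ± 1.17 under moderate drought and -2.30 ± 0.83 after re-watering. Actin averaged -1.235 ± 1.074 in Han21 under severe drought and -3.174 ± 1.003 in control, and 0.164 ± 0.97 and -3.11 ± 3.28 in Ye478. For moderate drought and re-watering, Cyph averaged 0.635 ± 0.156 and 0.923 ± 0.034 in Han21, and 0.698 ± 0.135 and 0.674 ± 0.112 in Ye478. Gapdh averaged 0.847 ± 0.229 and 1.175 ± 0.267 in Han21, and 1.257 ± 0.209 and 1.178 ± 0.113 in Ye478. Under severe drought and in control, Cyph averaged 0.857 ± 0.199 and 0.515 ± 0.025 in Han21. Its Ye478 averages were 0.599 ± 0.178 and 0.554 ± 0.119. In these states ubiquitin averaged -0.065 ± 0.327 and 0.367 ± 0.251 in Han21, and 0.255 ± 0.28 and 0.907 ± 0.517 in Ye478. Those of Gapdh were 1.058 ± 0.155 and 0.943 ± 0.246 in Han21, and 1.095 ± 0.124 and 1.123 ± 0.307 in Ye478. The part of these shifts in the members' values was not tested. In bulk tissue fewer cells of a type and less RNA per cell cannot be told apart.

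**Figure D2:**
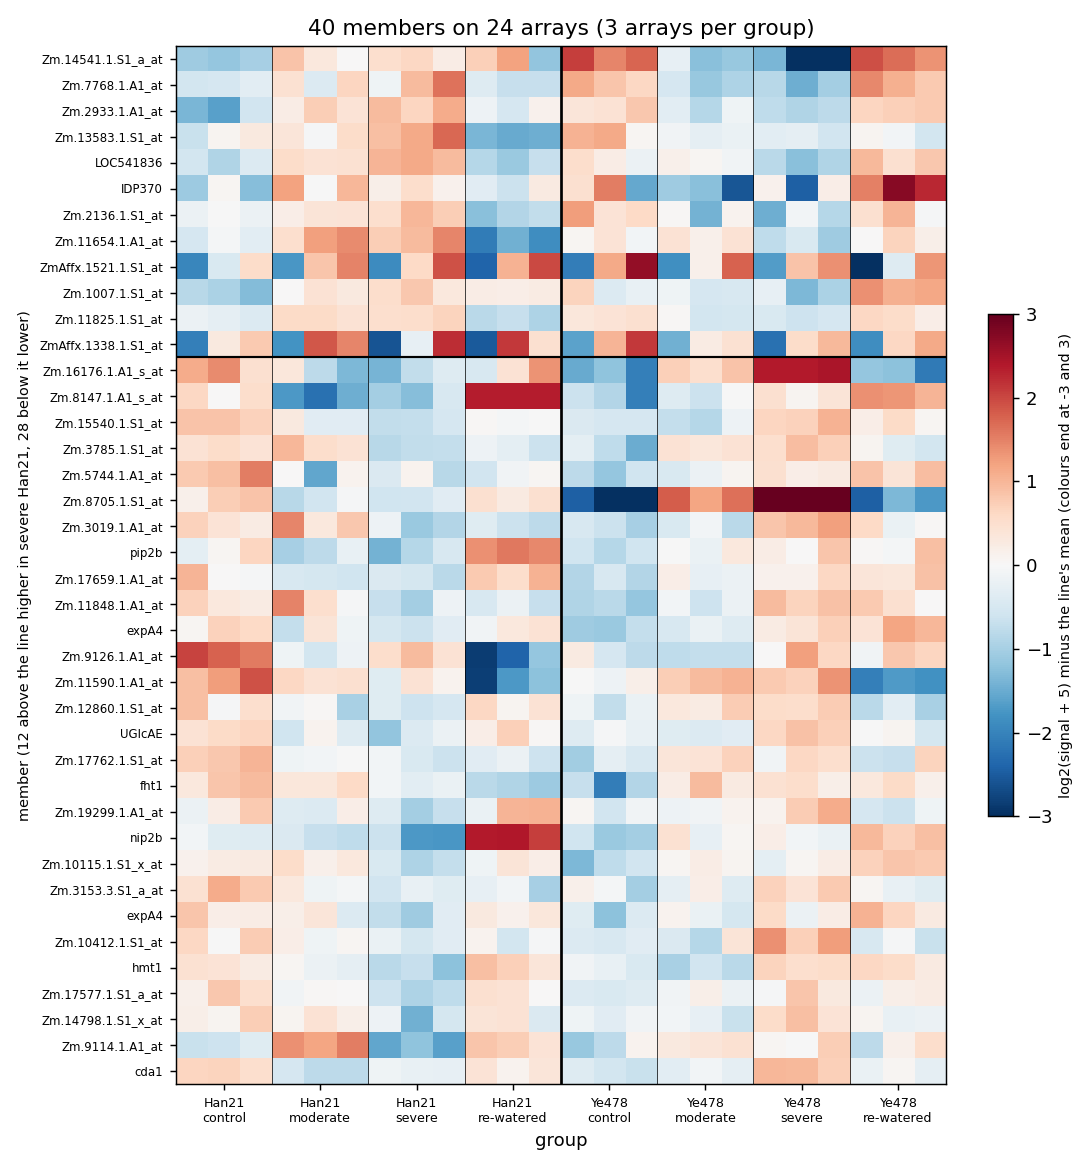
Log2(signal + 5) of the 40 members, in rows, on the 24 arrays, in columns, each relative to the mean of its line over the 4 treatments (red higher, blue lower, colours end at -3 and 3). Han21 is left of the thick vertical line and Ye478 right of it, and the 12 Han21-up members are above the horizontal line. ZmAffx.1521.1.S1_at and ZmAffx.1338.1.S1_at are lowest on replicate 1 in every group, while Zm.8147.1.A1_s_at and nip2b are highest in re-watered Han21.

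The plasma-membrane aquaporin pip2b, whose protein carries water into and out of cells, had lower signal in droughted than in control Han21 and higher signal in droughted than in control Ye478. In Han21, pip2b had 62.7, 94.3 and 124 units under severe drought, against 141, 182 and 275 in control. Its Ye478 arrays had 541, 468 and 839 units under severe drought, against 304, 257 and 305 in control. The groups did not overlap in either line, and the differences were -1.05 in Han21 and 1.08 in Ye478. Under moderate drought Han21 had 85.0, 99.5 and 151 units of pip2b, against 459, 538 and 482 after re-watering. All 3 moderate-drought arrays of Han21 were thus far below the re-watered ones. In Ye478 moderate drought gave 465, 403 and 579 units of pip2b, against 478, 444 and 879 after re-watering, and these groups overlapped.

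The NIP channel gene nip2b showed the same order of severe drought and control. It had 545, 255 and 253 units in Han21 under severe drought, against 816, 667 and 660.0 in control. Ye478 had 2560.4, 2117 and 1939 units under severe drought, against 1466, 1019 and 1091 in control. Both pairs were separate, with differences of -1.01 and 0.89. Moderate drought gave 638, 528 and 501 units of nip2b in Han21, against 4461, 4538 and 3641 after re-watering. In Ye478 the values of nip2b were 3082, 1887 and 2338 under moderate drought, against 4343, 3574 and 4141 after re-watering. Re-watered arrays of both lines therefore stood above the moderate-drought arrays, and above the control arrays too. Re-watered Han21 and Ye478 overlapped, while under moderate drought every Han21 array was below every Ye478 array.

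These aquaporin signals could be tested between moderate drought and re-watering, a difference the rule did not use. A limma model with a mean for each of the 8 groups was fitted to log2(signal + 5), and p-values were adjusted by Benjamini-Hochberg over the 12111 probe sets tested, with a threshold of 0.05. All 40 members were among these. Errors after log2 differences are standard errors. In Han21 pip2b was lower under moderate drought than after re-watering (-2.13 ± 0.29, adjusted p = 1.81e-06). The value for pip2b in Ye478 was -0.26 ± 0.29 (adjusted p = 0.462). The difference between the lines, Han21 minus Ye478, was -1.87 ± 0.41 for pip2b (adjusted p = 0.00239), which was 0.0968 without replicate 2. For nip2b the 2 line values were -2.91 ± 0.23 in Han21 (adjusted p = 8.12e-10) and -0.75 ± 0.23 in Ye478 (adjusted p = 0.00904). The Ye478 value of nip2b lost its call without replicate 2 (adjusted p = 0.104), without replicate 3 (0.0806) and without the second moderate-drought array of Ye478 (0.0602). Its line difference was -2.17 ± 0.32 (adjusted p = 7.07e-05). After re-watering the lines differed in nip2b by 0.07 ± 0.23 (95% interval -0.41 to 0.54, adjusted p = 0.844). Both aquaporins were lower in Han21 than in Ye478 under moderate drought, with differences of -2.09 for pip2b (adjusted p = 3.49e-06) and -2.10 for nip2b (adjusted p = 1.41e-07).

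The array holds 40 probe sets with a gene symbol of the pip, tip, nip, sip and Lsi families, of which 32 passed the filter on low signals. The only members among them are pip2b and nip2b, and the 30 members without a symbol could not be matched. Between severe drought and control, 3 of these 40 aquaporin probe sets were higher by 0.8 or more in both lines and 7 lower. For moderate drought against re-watering, 5 of the 32 were higher and 17 lower in Han21 (median -0.44, against 0.00 over all 12111 tested, of which 29.3% were called higher and 29.2% lower). In Ye478 2 were higher and 20 lower (median -0.67, against 0.07 over all tested, with 29.4% called higher and 26% lower). In the line difference 8 of the 32 were called higher in Han21 and 7 lower, with a median of 0.005, against 11.1% and 10% of all tested.

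**Figure D3:**
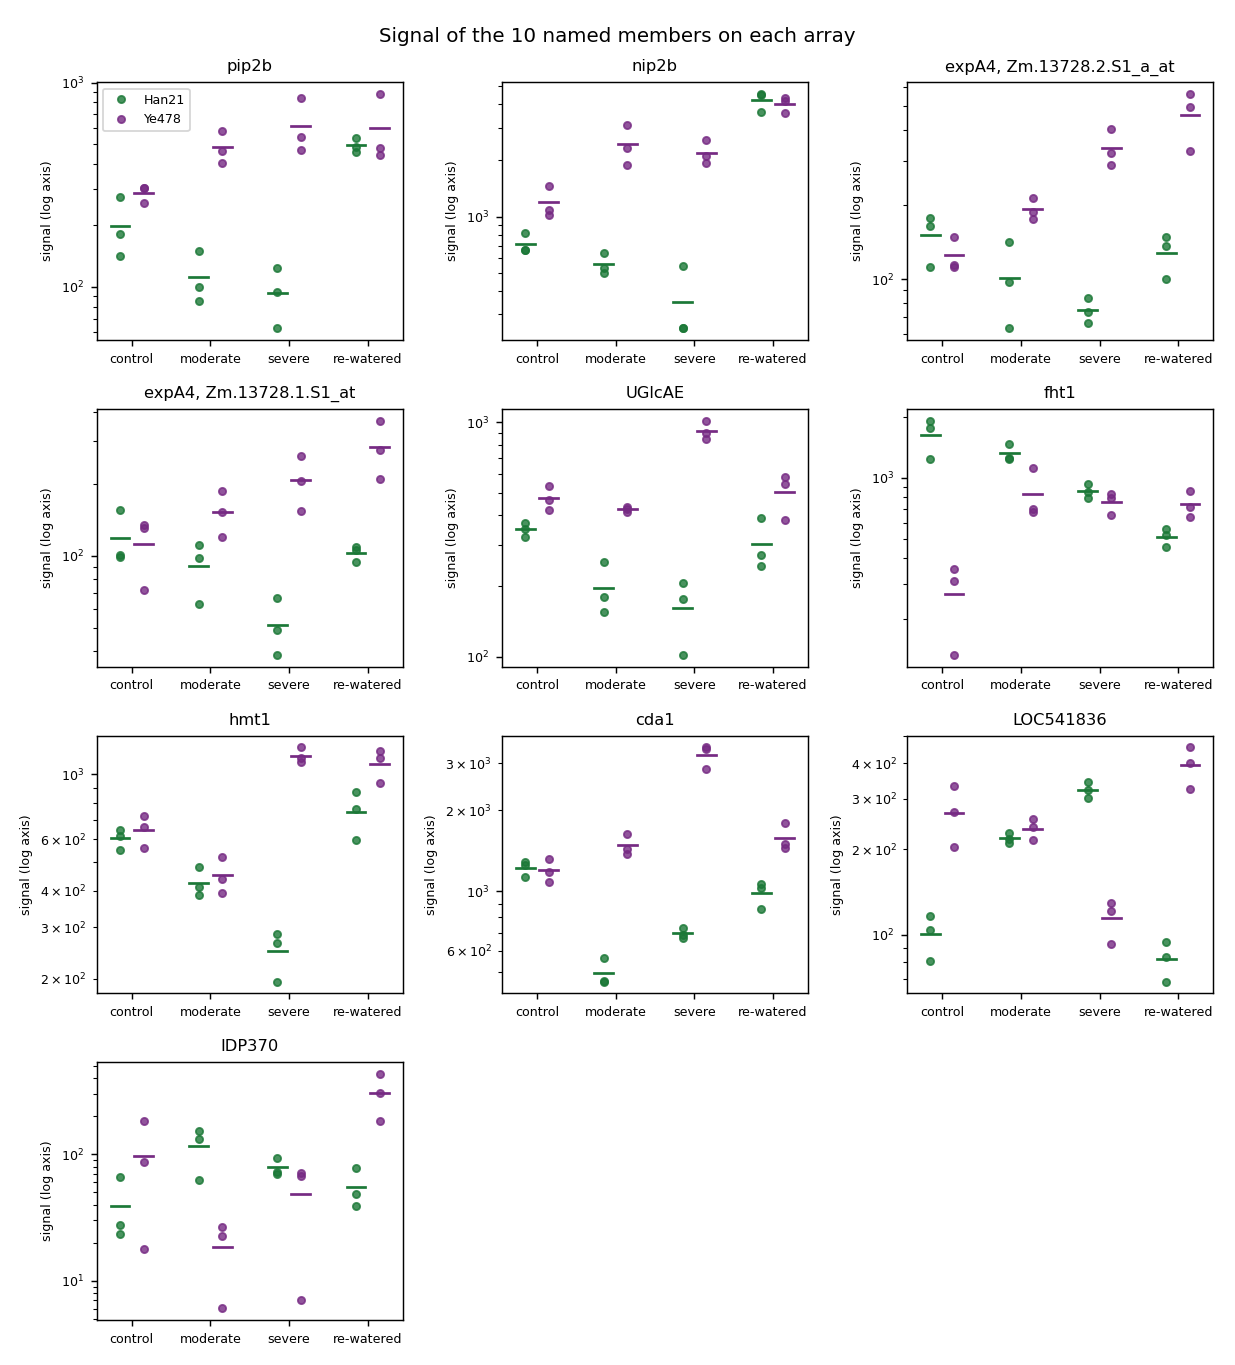
Signal of the 10 named members on each array (log axis, arbitrary units), by treatment, with Han21 in green to the left of Ye478 in purple. Points are single arrays and short lines are the means of 3 arrays. pip2b and nip2b in Han21 are above all other Han21 arrays after re-watering, and LOC541836 has its lines in opposite order under severe drought and in control.

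Expansins loosen walls during cell growth, and the 2 expA4 probe sets had like values. The probe set Zm.13728.2.S1_a_at of expA4 had 73.4, 66.7 and 83.9 units in Han21 under severe drought, against 112, 176 and 164 in control. In Ye478 it had 289.8, 324 and 404 units under severe drought, against 114, 112 and 149 in control. The groups were separate in both lines, and so were those of the other expA4 probe set, Zm.13728.1.S1_at, whose differences were -1.13 in Han21 and 0.85 in Ye478. The Han21 signals were low. Of the 6 control and severe-drought arrays of Han21, 4 were above the array's 40th percentile by Zm.13728.2.S1_a_at and 2 by Zm.13728.1.S1_at. A further probe set for expA4, Zm.13728.2.S1_at, was dim everywhere, with a highest group mean of 104 units, and had -0.76 in Han21 and -1.07 in Ye478. Because the 2 members share a gene, they are not independent.

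Between moderate drought and re-watering, expA4 went down in droughted Ye478 relative to re-watered Ye478. Under moderate drought Ye478 had 175, 213 and 188 units of expA4 by Zm.13728.2.S1_a_at, against 329, 560.2 and 497 after re-watering. The limma difference was -1.22 ± 0.25 (adjusted p = 0.000273), and that of Zm.13728.1.S1_at was -0.86 ± 0.28 (adjusted p = 0.0127). The second of these lost its call without replicate 1 (adjusted p = 0.0553), without replicate 2 (0.0502), without the third moderate-drought array of Ye478 (0.0672) and without the first re-watered array of Ye478 (0.0792). In Han21 the expA4 differences were -0.38 ± 0.25 and -0.21 ± 0.28 (adjusted p = 0.195 and 0.542). Neither line difference of expA4 was called (0.84 ± 0.35 and 0.65 ± 0.39, adjusted p = 0.0929 and 0.26). The first became 0.0171 with the replicate number as a block. Re-watered Ye478 was above its own moderate-drought level here, and so did not follow the order that severe drought and control gave.

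UGlcAE encodes a UDP-glucuronate epimerase, which makes the UDP-galacturonate used in pectin. Its member probe set had 102, 177 and 206 units in Han21 under severe drought, against 322, 351 and 372 in control. Ye478 had 843, 1014 and 899 units under severe drought, against 422, 535 and 467 in control, and neither pair overlapped. A second probe set annotated to UGlcAE, Zm.5311.1.A1_at, was lower in both lines (-2.42 in Han21 and -1.61 in Ye478), so the gene's 2 probe sets disagree about Ye478. For moderate drought against re-watering, the member gave -0.61 ± 0.22 in Han21 (limma adjusted p = 0.024), a call lost without replicate 1 (0.0867) or replicate 2 (0.0854). It also lost that call without any 1 of 3 single Han21 arrays (adjusted p 0.0688 to 0.151). In Ye478 the value of UGlcAE was -0.22 ± 0.22 (adjusted p = 0.431), and the line difference was -0.39 ± 0.32 (95% interval -1.05 to 0.27, adjusted p = 0.415).

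Among 32 probe sets for expansins, cellulose synthases and related wall genes, the 2 of expA4 were the only members, and 18 of the 32 were lower under severe drought by 0.8 or more in both lines while 1 was higher. Of the 26 that passed the filter, 22 were lower and 2 higher under moderate drought than after re-watering in Ye478 (median -1.14), against 26% and 29.4% of all tested. In Han21 11 were lower and 4 higher (median -0.33), against 29.2% and 29.3%. The line difference was called higher in 14 of these 26 and lower in 1, against 11.1% and 10%. No member fell among the other 10 gene lists counted. These were of dehydration proteins, heat shock proteins, cytoskeleton, DNA replication, light reactions and carbon fixation, antioxidant enzymes, carbohydrate, abscisic acid, nitrogen and defence genes. Every list, that of wall genes included, was matched through gene symbols, so the 30 members without a symbol could not fall in any.

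The gene fht1 encodes flavanone 3-hydroxylase, an early enzyme of the path to anthocyanins. Its signal was 926, 792 and 853 units in Han21 under severe drought, against 1229, 1754 and 1908 in control. Ye478 had 795, 832 and 654 units under severe drought, against 355, 134 and 310.1 in control. The lines were far apart in control and overlapped under severe drought. Moderate drought gave 1249.9, 1240.1 and 1472 units of fht1 in Han21, against 557, 521 and 454 after re-watering, so that re-watered Han21 had the lowest fht1 of that line. In Ye478 the values were 676, 1121 and 697 under moderate drought, against 715, 855 and 642 after re-watering. In the limma fit the differences for fht1 were 1.36 ± 0.26 in Han21 (adjusted p = 0.000114) and 0.14 ± 0.26 in Ye478 (adjusted p = 0.664). The line difference of fht1 was 1.22 ± 0.36 (adjusted p = 0.0208), opposite in sign to its severe-drought pattern. That call was lost without replicate 1 (adjusted p = 0.0891), without replicate 3 (0.175), without the third moderate-drought array of Ye478 (0.0567) and without its second re-watered array (0.0557).

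Homocysteine S-methyltransferase, which makes methionine from homocysteine, is encoded by hmt1. It had 265, 285 and 196 units in Han21 under severe drought, against 644, 615 and 554 in control, and 1238, 1100.4 and 1135 in Ye478 under severe drought, against 722, 659 and 560.0 in control. Under moderate drought hmt1 had 481, 412 and 386 units in Han21, against 874, 759 and 598 after re-watering. Ye478 had 394, 523 and 440.2 units under moderate drought, against 1198, 1137 and 934 after re-watering. The moderate-drought arrays were the lowest of the 4 treatments in Ye478, and in both lines they lay below the re-watered ones. By limma hmt1 was lower under moderate drought in Han21 (-0.79 ± 0.16, adjusted p = 0.000241) and in Ye478 (-1.26 ± 0.16, adjusted p = 1.07e-06). The line difference of 0.48 ± 0.23 was not called (adjusted p = 0.141) and became 0.0375 with the replicate number as a block. In Ye478 hmt1 was thus below control at moderate drought (-0.51) and above it at severe drought (0.83), values that share the control arrays.

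For cda1 the severe-drought signal was 729, 689 and 670.1 units in Han21, against 1247, 1283 and 1134 in control. Ye478 had 3434, 3396 and 2853 units under severe drought, against 1322, 1183 and 1079.9 in control. The suffix of this probe set marks probes that can hybridise to other transcripts, and cda1 shares its cluster of probe sets with cda2. The cda2 probe set Zm.7138.2.S1_a_at lay just outside the limit (-0.77 in Han21 and 1.36 in Ye478). Other probe sets of this cluster went other ways: Zm.7138.2.S1_at was lower in both lines (-0.89 in Han21 and -0.71 in Ye478) and Zm.7138.1.S1_at higher in both (0.61 and 0.66), so the source of the cda1 signal is uncertain. Moderate drought gave 564, 461 and 462 units of cda1 in Han21, against 1064, 857 and 1024 after re-watering, and 1379, 1640.1 and 1442 in Ye478, against 1505, 1797 and 1446. By limma cda1 was lower under moderate drought in Han21 (-0.98 ± 0.12, adjusted p = 6.44e-07), the Ye478 value was -0.09 ± 0.12 (adjusted p = 0.57), and the line difference was -0.89 ± 0.17 (adjusted p = 0.000889).

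LOC541836 is a Han21-up member with no role assigned here. It had 321, 344 and 303 units in Han21 under severe drought, against 104, 81.0 and 116 in control. In Ye478 it had 129, 93.1 and 121 units under severe drought, against 332, 269.8 and 203 in control. Thus Han21 was below Ye478 in control and above it under severe drought, with no overlap in either state. Moderate drought gave 228, 209 and 216 units in Han21, against 83.2, 68.5 and 94.2 after re-watering. Ye478 had 255, 239 and 215 units under moderate drought, against 456, 324 and 403 after re-watering. In limma LOC541836 was higher under moderate drought in Han21 (1.37 ± 0.18, adjusted p = 1.32e-06) and lower in Ye478 (-0.72 ± 0.18, adjusted p = 0.00198), and the line difference was 2.08 ± 0.25 (adjusted p = 6.96e-06). Under moderate drought itself the lines differed by -0.11 ± 0.18 (95% interval -0.48 to 0.26, adjusted p = 0.666), and after re-watering by -2.20 ± 0.18 (adjusted p = 2.16e-09).

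IDP370, the other named Han21-up member, was dim, and its SE was larger than that of LOC541836. It had 72.4, 93.6 and 70.5 units in Han21 under severe drought, against 27.4, 66.3 and 23.3 in control. Ye478 had 67.3, 7.08 and 71.1 units under severe drought, against 87.6, 185 and 17.7 in control, and these overlapped. Under moderate drought Ye478 had 26.6, 22.6 and 6.07 units of IDP370, against 183, 434 and 308 after re-watering, the brightest group for this probe set. Because re-watered Ye478 alone brought IDP370 past the minimum signal, differences that use that group are given without a test: -3.79 in Ye478 and 4.76 between the lines. In Han21 the limma difference was 0.96 ± 0.68 (adjusted p = 0.232).

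Several unnamed members had 1 line near the bottom of the array. As a yardstick, the 40th percentile of an array lay between 72.6 and 106.8 units. In 9 of the 40 members none of the 12 arrays of 1 line was above its array's 40th percentile, and the size of a difference in that line depends on the constant of 5. Zm.8705.1.S1_at had the largest severe-drought difference of any member. In Ye478 it had 2726, 2859 and 3416 units under severe drought, against 47.2, 17.0 and 26.4 in control, a difference of 6.42. Moderate drought gave 1002, 645 and 895 units of it in Ye478, against 47.0, 108 and 80.9 after re-watering. In Han21 no array was above 78.7 units and the severe minus control difference was -1.12. In the limma fit the moderate minus re-watered difference was 3.40 ± 0.30 in Ye478 (adjusted p = 5.48e-09) and -0.89 ± 0.30 in Han21 (adjusted p = 0.0134). The Han21 call was lost without replicate 2 (adjusted p = 0.0515) and without the first moderate-drought array (0.0684). The line difference was -4.29 ± 0.42 (adjusted p = 6.88e-07).

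Zm.16176.1.A1_s_at had the same form. In Ye478 it had 3854, 3816 and 4013 units under severe drought, against 254, 312 and 172 in control. Its Ye478 arrays had 1203, 1043 and 1335 units under moderate drought, against 326, 311 and 164 after re-watering, so that the order was severe, moderate, then the overlapping control and re-watered arrays. Han21 arrays of Zm.16176.1.A1_s_at stayed at or below 65.0 units throughout. The limma difference of moderate drought and re-watering was 2.19 ± 0.42 in Ye478 (adjusted p = 0.000146), and the line difference was -3.22 ± 0.59 (adjusted p = 0.00054). In Han21 the value of -1.03 ± 0.42 (adjusted p = 0.0398) lost its call when any of several arrays was left out, and with a constant of 20, quantile normalization, median centring or no filter. The neighbouring probe set Zm.16176.1.A1_at was dim in every group, at 43.3 units or less, with -1.39 in Han21 and -0.27 in Ye478.

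**Figure D4:**
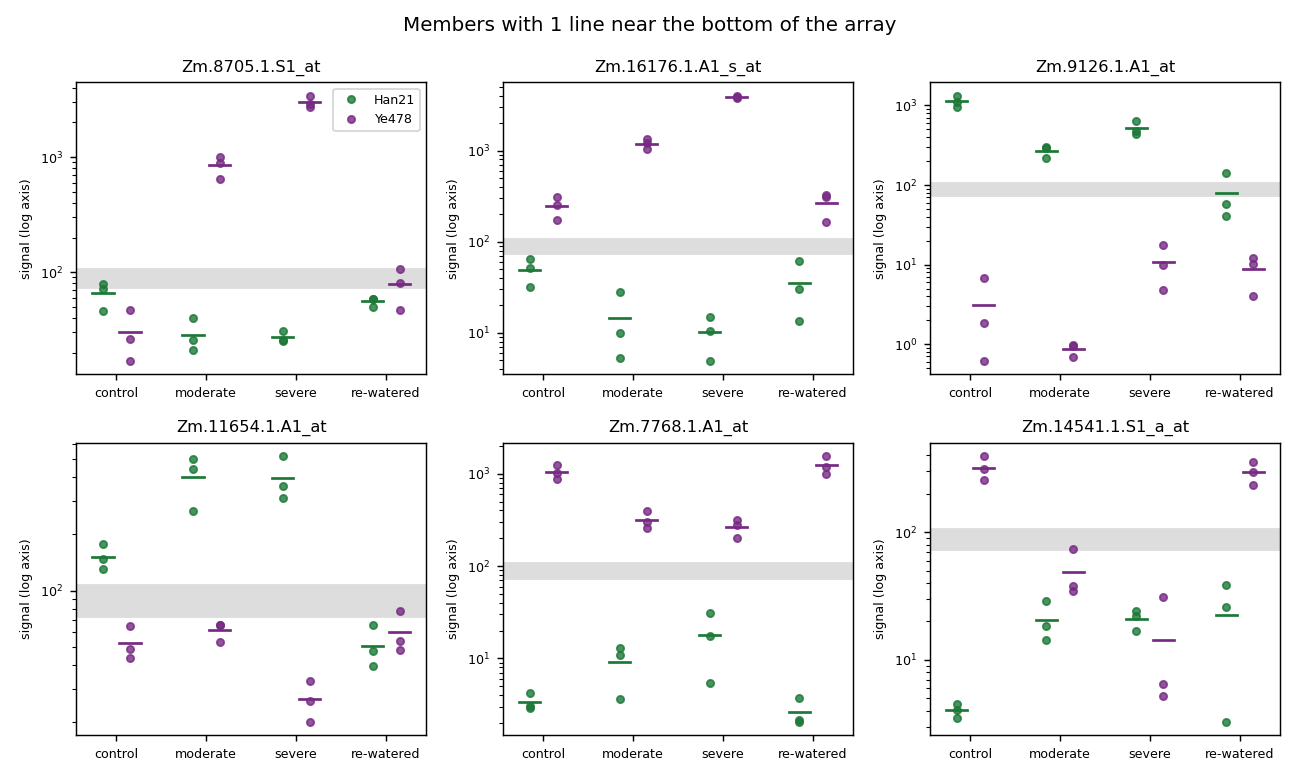
Signal on each array (log axis, arbitrary units) of the 6 members that had a called line difference and 1 line with no array above its 40th percentile, by treatment, with Han21 in green to the left of Ye478 in purple. Short lines are means of 3 arrays, and the grey band spans the 40th percentiles of the 24 arrays, 72.6 to 106.8 units. Zm.8705.1.S1_at and Zm.16176.1.A1_s_at are far above the band in droughted Ye478, Zm.7768.1.A1_at is above it in Ye478 alone, and Zm.9126.1.A1_at in Han21 alone, with re-watered Han21 arrays on both sides of it.

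Among the Han21-up members, Zm.7768.1.A1_at and Zm.14541.1.S1_a_at were bright in Ye478 alone. Zm.7768.1.A1_at had 319, 202 and 279 units in Ye478 under severe drought, against 1257, 1018 and 870.5 in control, and at most 30.7 units on any Han21 array. Its Han21 values therefore lay wholly below the 40th percentile of the arrays. A probe set of the same cluster, Zm.7768.1.A1_s_at, was lower in both lines (-3.14 in Han21 and -3.33 in Ye478). Zm.14541.1.S1_a_at had 31.1, 6.44 and 5.17 units in Ye478 under severe drought, against 393, 256 and 313 in control, and at most 38.4 units in Han21. In limma the moderate minus re-watered difference in Ye478 was -1.95 ± 0.34 for Zm.7768.1.A1_at (adjusted p = 4.86e-05) and -2.53 ± 0.48 for Zm.14541.1.S1_a_at (adjusted p = 0.000156). The line differences were 2.77 ± 0.47 (adjusted p = 0.000273) and 2.68 ± 0.68 (adjusted p = 0.00794), of which the second lost its call without replicate 2 (0.0673) or replicate 3 (0.0522). The Han21 call of Zm.7768.1.A1_at (0.82 ± 0.34, adjusted p = 0.0412) was lost without any 1 replicate (adjusted p 0.0552 to 0.242) and with a constant of 20 (0.196).

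Of the other unnamed Han21-up members, Zm.2933.1.A1_at and Zm.11825.1.S1_at were above the 40th percentile on all 24 arrays. Zm.2933.1.A1_at had 671, 542 and 755 units in Han21 under severe drought, against 129, 108 and 229 in control, and 168, 151 and 164 in Ye478 under severe drought, against 366, 385 and 504 in control. Han21 was above Ye478 under severe and moderate drought and below it in control and after re-watering, with no overlap in any of the 4. By limma its line difference was 1.78 ± 0.33 (adjusted p = 0.000543), from 0.64 ± 0.23 in Han21 (adjusted p = 0.0218) and -1.14 ± 0.23 in Ye478 (adjusted p = 0.000274). The Han21 value lost its call without replicate 1 (0.0603) or replicate 2 (0.286). Zm.11825.1.S1_at, named after its values were seen, showed the same reversal of order: 1110.1, 1116 and 1009 units in Han21 under moderate drought, against 423, 460.1 and 386 after re-watering, and 574, 381 and 387 in Ye478, against 856, 818 and 641. Its line difference was 2.14 ± 0.20 (limma adjusted p = 3.95e-07), with 1.34 ± 0.14 in Han21 and -0.80 ± 0.14 in Ye478. Zm.11654.1.A1_at was called in Han21 and not in Ye478 on these arrays, with 265, 444 and 505 units under moderate drought, against 39.5, 65.3 and 47.8 after re-watering, and 65.5, 53.2 and 65.7 in Ye478, against 48.0, 77.9 and 53.8. The limma values were 2.85 ± 0.26 in Han21 (adjusted p = 5.51e-09), 0.06 ± 0.26 in Ye478 (adjusted p = 0.87) and 2.79 ± 0.36 between the lines (adjusted p = 1.42e-05). Zm.13583.1.S1_at was above that percentile on all 12 Ye478 arrays. By limma it had 1.74 ± 0.27 in Han21 (adjusted p = 1.34e-05) and -0.00 ± 0.27 in Ye478 (adjusted p = 0.993). Its line difference of 1.74 ± 0.39 (adjusted p = 0.00294) was 0.0672 without replicate 2. A probe set of the same cluster with a highest group mean of 2319 units, Zm.13583.2.S1_at, had 0.64 in Han21 and 0.83 in Ye478 for severe drought minus control, where Zm.13583.1.S1_at had 1.34 and -1.20.

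The other Ye478-up members named by the rule differed in sign between moderate drought and re-watering. Zm.8147.1.A1_s_at had 56.6, 38.7 and 69.1 units in Han21 under moderate drought, against 1048, 1037 and 1039.7 after re-watering, and 198, 167 and 258 in Ye478, against 689.7, 662 and 532. Both lines were higher after re-watering, and Han21 by more: the limma values were -4.16 ± 0.29 in Han21 and -1.59 ± 0.29 in Ye478, with a line difference of -2.57 ± 0.41 (adjusted p = 0.000126). The partner probe set Zm.8147.1.A1_at went the same ways under severe drought (-0.73 in Han21 and 1.10 in Ye478) but missed the limit. Zm.9126.1.A1_at, bright in Han21 alone, had 297, 221 and 293 units there under moderate drought, against 40.9, 56.9 and 143 after re-watering, while no Ye478 array exceeded 17.7 units. Its line difference of 3.04 ± 0.52 (adjusted p = 0.000284) had the sign opposite to that under severe drought. Zm.3019.1.A1_at had 1621, 720.3 and 1019 units in Han21 under moderate drought, against 450.1, 370.4 and 334 after re-watering, and Zm.11848.1.A1_at had 630.4, 321 and 218, against 159, 198 and 136. Their line differences were 2.05 ± 0.39 (adjusted p = 0.000739) and 1.81 ± 0.41 (adjusted p = 0.00316), also opposite in sign to severe drought. The second lost its call without replicate 1 (0.0577) or replicate 2 (0.073). Zm.15540.1.S1_at gave 0.74 ± 0.25 (adjusted p = 0.0407), a call lost without replicate 1 (0.301), replicate 2 (0.335), with no filter (0.0525), in a fit of those 4 groups alone (0.102) and without any of 8 single arrays (0.0548 to 0.128). Zm.3785.1.S1_at was higher under moderate drought than after re-watering in both lines (1.01 ± 0.22 in Han21, adjusted p = 0.000474, and 0.68 ± 0.22 in Ye478, adjusted p = 0.0124), and its line difference was not called (0.33 ± 0.31, adjusted p = 0.488). The Ye478 value was not called without replicate 2 (0.132) or replicate 3 (0.0539). Zm.5744.1.A1_at was dim in Han21, with means of 22.4 units under moderate drought and 25.0 after re-watering, and had -0.90 ± 0.34 in Ye478 (adjusted p = 0.0279), a call lost without replicate 1 (0.209) or replicate 3 (0.0727). The line difference of Zm.5744.1.A1_at was not called (0.62 ± 0.48, adjusted p = 0.389).

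Both of the probe sets ZmAffx.1338.1.S1_at and ZmAffx.1521.1.S1_at gave no call in any of the 5 tests. ZmAffx.1338.1.S1_at had 58.2, 317 and 1773 units in Han21 under severe drought, against 86.9, 459 and 653 in control. ZmAffx.1521.1.S1_at had 21.4, 143 and 366 units in Han21 under severe drought, against 20.5, 66.8 and 139.8 in control. In both, replicate 1 was the lowest array of every group, and the severe-drought and control arrays overlapped in both lines. Their place in the set thus rests on group means whose arrays overlapped.

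Across the 40 members, severe-drought and control arrays did not overlap in either line for 34, 8 of the 12 Han21-up and 26 of the 28 Ye478-up members, against 49.4% of the 12111 tested probe sets. The rule used these arrays, so nothing is read from that count. The median severe minus control difference was 1.35 in Han21 and -1.06 in Ye478 for Han21-up members, and -1.10 and 1.00 for Ye478-up members. At moderate drought, relative to the same control arrays, the medians were 1.08 in Han21 and -0.97 in Ye478 for Han21-up members, and -0.65 and 0.67 for Ye478-up members. All 12 Han21-up members were above control in Han21 and 11 below it in Ye478, and 23 of the 28 Ye478-up members were below control in Han21 and 23 above it in Ye478. After re-watering the medians were 0.16 and 0.11 for Han21-up members, and -0.22 and 0.76 for Ye478-up members. Over all tested probe sets these medians lay between -0.07 and 0.04. In control plants 10 of the 12 Han21-up members were lower in Han21 than in Ye478, with a median difference of -1.23, while 17 of the 28 Ye478-up members were higher in Han21 (median 0.17). All of these share control arrays with the choice of members and are descriptions.

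Members close to the limit of 0.8 show how narrow the choice is. Without replicate 1 of every group the rule finds 20 Han21-up and 33 Ye478-up members, and without the third severe-drought array of Ye478 it finds 20 and 23. Quantile normalization and median centring each leave 7 Han21-up and 28 Ye478-up members. Just inside the limit were ZmAffx.1338.1.S1_at (0.83 in Han21 and -0.88 in Ye478), Zm.11825.1.S1_at (0.85 and -0.94), cda1 (-0.81 and 1.43) and Zm.9114.1.A1_at (-0.90 and 0.82). Just outside were ZmAffx.1489.1.S1_at (1.51 in Han21 and -0.78 in Ye478), Zm.9667.1.A1_at (1.35 and -0.78), Zm.14524.1.S1_at (-0.78 and 2.22) and the cda2 probe set (-0.77 and 1.36).

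Whether the lines also differ between moderate drought and re-watering was then counted over the members. The line difference, Han21 minus Ye478, was called in 23 of the 40 members (57.5%), against a background of 21.1% of the 12111 tested probe sets. Without replicate 1 the count was 21, against 11.1%. Of the 23, 17 had the sign that severe drought gave and 6 the opposite sign, and without replicate 1 these were 18 and 3. The count against it was also 3 without replicate 2 and without the second re-watered array of Ye478. Among the Han21-up members 10 of 12 were called, all of them higher in Han21 as under severe drought, with a median of 2.11. The background is 11.1% called higher, and the median over all tested is -0.03. One of the 10 is IDP370, whose place in the set rests on a group of this contrast. Without it 22 of 39 members were called, 16 with the severe-drought sign, and 9 of 11 Han21-up members, with a median of 2.08. The 2 not called were the ZmAffx probe sets above. Among the 28 Ye478-up members 13 were called, 7 with the severe-drought sign and 6 against it, with a median of 0.20. The background is 10% called lower and 11.1% called higher. The 7 were Zm.16176.1.A1_s_at, Zm.8147.1.A1_s_at, Zm.8705.1.S1_at, pip2b, Zm.12860.1.S1_at, nip2b and cda1. The 6 were Zm.15540.1.S1_at, Zm.3019.1.A1_at, Zm.11848.1.A1_at, Zm.9126.1.A1_at, fht1 and Zm.10115.1.S1_x_at. Relative to control, the moderate-drought value was lower in Han21 than in Ye478 for each of these except Zm.3019.1.A1_at (0.49 and 0.27). That comparison shares control arrays with the choice of members and was not tested.

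**Figure D5:**
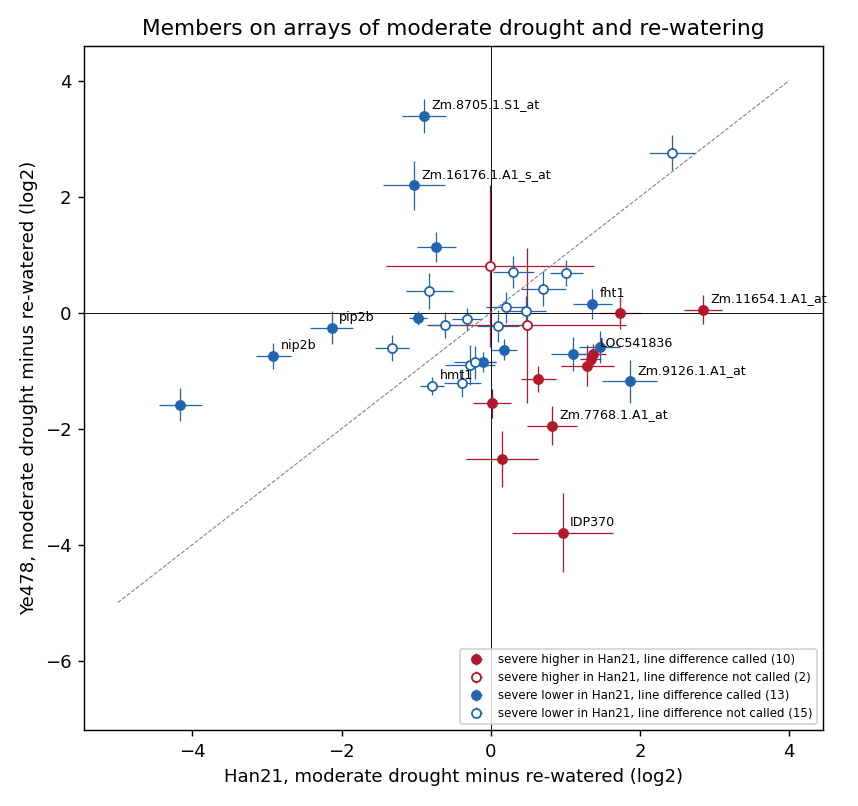
Moderate drought minus re-watered (log2, limma estimate) in Han21 on the horizontal axis and in Ye478 on the vertical axis for the 40 members, with bars of 1 SE each way. Red points are the 12 Han21-up members and blue points the 28 Ye478-up members, filled where the line difference was called, and points on the dashed line would have equal values in both lines. The red points lie below the dashed line except for 1 of the 2 open ones, while blue points lie on both sides of it. IDP370 entered the set through re-watered Ye478, which this plot uses.

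The sign in both lines matched severe drought in 10 of the 12 Han21-up members (9 of 11 without IDP370) and in 4 of the 28 Ye478-up members, while over all tested probe sets 10% were higher in Han21 and lower in Ye478 and 13.3% the reverse. Opposite differences that were called in both lines are rarer, at 1.75% of tested probe sets, and were seen in 10 members. Of these, Zm.7768.1.A1_at, Zm.16176.1.A1_s_at and Zm.8705.1.S1_at had no Han21 array above its 40th percentile, and Zm.9126.1.A1_at no Ye478 array. Zm.2136.1.S1_at had 2 of 12 Ye478 arrays above it. The size of a difference in such a line depends on the constant of 5. The severe-drought direction was seen in 5 Han21-up members, Zm.7768.1.A1_at, Zm.2933.1.A1_at, LOC541836, Zm.2136.1.S1_at and Zm.11825.1.S1_at. Zm.2136.1.S1_at, named after its values were seen, had 1.29 ± 0.36 in Han21 (limma adjusted p = 0.00374) and -0.91 ± 0.36 in Ye478 (adjusted p = 0.0351), with at most 45.5 units on the Ye478 moderate-drought arrays. The severe-drought direction was also seen in 3 Ye478-up members, Zm.16176.1.A1_s_at, Zm.8705.1.S1_at and Zm.12860.1.S1_at. As given above, the Han21 calls of Zm.16176.1.A1_s_at, Zm.8705.1.S1_at, Zm.7768.1.A1_at and Zm.2933.1.A1_at were lost under some alternatives. LOC541836 kept its calls in both lines. Alternatives are not given for Zm.2136.1.S1_at, Zm.11825.1.S1_at and Zm.12860.1.S1_at. Zm.12860.1.S1_at, also named after its values were seen, had 251, 279 and 136 units in Han21 under moderate drought, against 421, 287 and 368 after re-watering, and 389, 370.0 and 536 in Ye478, against 177, 249 and 157. The limma differences were -0.73 ± 0.26 (adjusted p = 0.0199) and 1.14 ± 0.26 (adjusted p = 0.000847), with a line difference of -1.87 ± 0.37 (adjusted p = 0.000999). Zm.9126.1.A1_at and Zm.11848.1.A1_at were called against the severe-drought direction in both lines. The Ye478 calls behind these were lost in places: Zm.9126.1.A1_at had an adjusted p of 0.127 without replicate 2, 0.051 without replicate 3 and 0.141 with a constant of 20. Zm.11848.1.A1_at had 0.0886 without replicate 1 and 0.323 without replicate 2. Relative to control, Zm.9126.1.A1_at had -2.05 in Han21 and -0.46 in Ye478 under moderate drought, and -3.74 and 0.77 after re-watering. Zm.11848.1.A1_at had 0.36 and 0.68 under moderate drought, and -0.86 and 1.41 after re-watering. These values share control arrays with the choice of members. In 12 of the Ye478-up members both lines were lower under moderate drought than after re-watering, and in 7 both were higher.

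Within each line the share of members called was near the background. Moderate drought differed from re-watering in 24 of 40 members in Han21, 13 higher and 11 lower, against a background of 58.5% (29.3% higher and 29.2% lower). In Ye478 25 were called, 6 higher and 19 lower (18 without IDP370), against 55.5% (29.4% higher and 26% lower). Without replicate 1 these counts were 19 and 21, against 51.1% and 47.7%. The levels of the lines were compared next. Under moderate drought Han21 differed from Ye478 in 28 of 40 members, 10 higher and 18 lower, against 42.7% (22.8% higher and 20% lower). After re-watering the count was 30, 6 higher and 24 lower (23 without IDP370), against 44.1% (24.3% higher and 19.8% lower). Without replicate 1 these were 26 against 34.9% and 27 against 32.3%. Among the Ye478-up members 17 of 28 were called lower in Han21 under moderate drought and 17 after re-watering, with backgrounds of 20% and 19.8%. Of the 12 Han21-up members, 6 were called higher in Han21 under moderate drought and 1 lower. After re-watering 1 was called higher and 7 lower (6 without IDP370). Only Zm.2933.1.A1_at and Zm.11825.1.S1_at were called higher under moderate drought and lower after re-watering. IDP370 is not counted here, because it entered the set through re-watered Ye478. Zm.7768.1.A1_at was called lower in both states and Zm.2136.1.S1_at higher in both.

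Probe sets whose suffix marks probes shared by several transcripts (a, s or x) made up 25% of the members and 12.6% of all 17621. In all 18 members, 2 Han21-up and 16 Ye478-up, were above the 40th percentile on all 24 arrays. Besides those of UGlcAE, cda1, Zm.7768.1.A1_at and Zm.13583.1.S1_at, the cluster of Zm.3153.3.S1_a_at held probe sets that went another way: Zm.3153.2.S1_s_at was lower in both lines (-1.75 in Han21 and -1.29 in Ye478), as was Zm.3153.2.S1_x_at (-1.10 and -1.02). In the cluster of Zm.14798.1.S1_x_at, Zm.14798.2.A1_a_at had -0.80 and 0.74, Zm.14798.2.A1_at had -0.69 and 0.17, and Zm.14798.1.S1_at had 0.11 and 0.70. Whether the arrays' probes bind the transcripts of both lines equally well was not tested.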

How the data were processed

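The values are the authors' deposited MAS5 signal intensities of 17734 probe sets on 24 arrays, on a linear scale. They were made with GCOS and MAS5 (versions not given in the sources used here), per the submitters' processing notes. The 2% trimmed mean of an array was 500.1 to 500.2, which shows a scaling to 1 target before deposit. Detection calls are not used here, and the values entered the fits without another normalization. The 113 control probe sets were left out of the tests.

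The members, the gene lists and the tests were chosen with earlier results of these data known. Groups follow the sample titles. Signals were analysed as log2(signal + 5). Probe sets above the array's 40th percentile on at least 3 arrays were kept, 12111 in all. One limma model (eBayes with trend, residual degrees of freedom 16, prior degrees of freedom 5.03) gave 5 contrasts on moderate-drought and re-watered arrays only, which the choice of members used for the minimum signal alone, with Benjamini-Hochberg adjustment over all kept probe sets within a contrast. Other groups entered only through the shared spread. The number of arrays limits the precision.

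Named members are those with 1 gene symbol, the 6 of each kind with the largest smaller-of-both severe-drought difference, and the 4 largest called line differences in each direction. Probe sets were tied to genes by the platform annotation and matched to the RefSeq gene table of Zm-B73-REFERENCE-NAM-5.0, by gene ID for 8 genes and by synonym for expA4. The names printed are synonyms in that table, except LOC541836, which has no short name there. Coordinates and sequences are not used here.

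Arrays of the same replicate number in the 4 tested groups deviated together (r = 0.126 to 0.635 over 18 pairs of arrays, across probe sets), so the numbers pair the samples, and the number was also fitted as a block. No 2 arrays were alike enough to be 1 array (highest r 0.984). Alternatives were other constants, limits, filters, scalings and fits, and leaving out each replicate or array. Software: limma 3.58.1 under R 4.3.3 was used for the fits, and pandas 2.3.3, matplotlib 3.10.9 and numpy 2.4.6 under Python 3.11.15 for the rest.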

Additional observations from a re-analysis of the deposited data

Results flagged for a closer look

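The difference between moderate drought and re-watered plants was not alike in Han21 and Ye478 for 22 members. This was by a test of the line difference itself (limma, Han21 minus Ye478, log2, adjusted p under the threshold of 0.05). The 9 Han21-up members among them were all higher in Han21. LOC541836 had 2.08. The unnamed ones were Zm.14541.1.S1_a_at with 2.68, Zm.7768.1.A1_at with 2.77, Zm.2933.1.A1_at with 1.78 and Zm.13583.1.S1_at with 1.74. Zm.2136.1.S1_at had 2.20, Zm.11654.1.A1_at 2.79, Zm.1007.1.S1_at 1.58 and Zm.11825.1.S1_at 2.14.

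The 7 Ye478-up members with the sign of severe drought were lower in Han21. These were pip2b with -1.87, nip2b with -2.17, cda1 with -0.89, Zm.16176.1.A1_s_at with -3.22, Zm.8147.1.A1_s_at with -2.57, Zm.8705.1.S1_at with -4.29 and Zm.12860.1.S1_at with -1.87. The 6 with the opposite sign were fht1 with 1.22, Zm.15540.1.S1_at with 0.74, Zm.3019.1.A1_at with 2.05, Zm.11848.1.A1_at with 1.81, Zm.9126.1.A1_at with 3.04 and Zm.10115.1.S1_x_at with 0.82. Of all 12111 tested probe sets 21.1% were called in the same difference. IDP370 is left out because the minimum signal was reached in re-watered Ye478 alone.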

How the results depend on the processing

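Membership depended most on the limit: at 0.6 there were 79 members, 31 Han21-up and 48 Ye478-up, and at 1 there were 15, 5 and 10. The 12 Han21-up members became 7 with a constant of 20, with quantile normalization and with median centring, and 6 with a minimum signal of 400. Of the 40 members, 32 remained under quantile normalization and 31 under median centring. Without a whole replicate the set had 38 to 53 members, with 12 to 20 Han21-up and 24 to 33 Ye478-up, and without 1 array 35 to 46, with 10 to 20 and 23 to 31. The Han21-up count was 20 without replicate 1 and 20 without the third severe-drought array of Ye478. Of the 40, 37 remained without replicate 1, 30 without replicate 2 and 28 without replicate 3. The cause was not tested.

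For moderate drought against re-watering, calls without a whole replicate ranged over 18 to 20 members in Han21 and 17 to 21 in Ye478, and without 1 array over 19 to 25 and 20 to 26. The line difference had 16 to 21 and 20 to 25 calls, of which 13 to 18 and 17 to 19 had the severe-drought sign. Calls against it numbered 3 to 4 and 3 to 7, with 3 without replicate 1, without replicate 2 and without the second re-watered array of Ye478. The lines under moderate drought gave 24 to 27 and 25 to 28 calls, and after re-watering 25 to 28 and 27 to 31. With at least 2-fold required, 13 members were called in Ye478, against 21.5% of all tested. The background of the line difference was 7.89% without replicate 2, 13.4% with no filter and 10.6% at 2-fold.

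With the replicate number as a block, 25 members were called in Han21 (background 65.1%), 27 in Ye478 (62.9%) and 26 in the line difference (18 with the severe-drought sign and 8 against it), against a background of 31.2%. The lines differed in 29 under moderate drought (50.6%) and 31 after re-watering (52.2%). An alternative chosen after seeing the data, counting only members that reached 200 units in a severe-drought or control group, leaves 39 members and 22 called line differences. Of the comparisons made for the named members under all alternatives, 4261 kept their side of the threshold, 149 lost a call, 20 gained one and none turned a called direction round. Dim values limit members with 1 line below the 40th percentile.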
